A study of Mus musculus with 2 samples.

Results

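The complement system was examined in the prefrontal cortex (PFC) as 32 genes chosen by name, from the recognition proteins of the cascade to its receptors. They were found by symbol among 37069 gene names on the arrays, and all 32 had a probe. Probes without a symbol kept their accession as a gene name, and these are part of all gene names below. Pooled total RNA of the control group (C group) was hybridized to 1 one-color Agilent mouse array, and pooled RNA of the chronic mild stress group (CMS group) to another. Both groups were male C57Bl/6 N sea mice, aged 9 to 10 weeks at the start, and carried no transgene named in the labels. The C group received ordinary care in group housing. The CMS group was housed singly and received 4 weeks of unpredictable mild stressors, so that single housing and the stressors cannot be told apart. The design text gives 7 mice per pool, whereas the methods give 10 mice per group for arrays and qRT-PCR. A single array stood for each group, so differences could not be set against a spread between animals or tested. All differences below are descriptions of 2 pools.

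Complement is a cascade of plasma proteins that tags cells and microbes and, in its last steps, opens pores in membranes. It is started by C1q bound to antibody or surfaces (classical pathway), by mannose-binding lectins (lectin pathway) or by slow turnover of C3 (alternative pathway), and all 3 routes meet at C3. Hepatocytes make most of the plasma components. In the brain, microglia make C1q and carry the anaphylatoxin receptors, and astrocytes make clusterin and, with other glia, C4. By this textbook knowledge of their main source, 16 members were placed in a liver group, 8 in a group of microglia and astrocytes, and 8 in a group with other or several sources. C4b and Clu, in the glial group, are also made in liver. The groups go by main source only and do not exclude other sources. Of the 16 liver members, 13 were well above background in the control pool too, and whether brain cells made them was not tested.

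The liver group and the glial group differed in what was seen in the CMS pool. Of the 16 liver members, 11 exceeded 2-fold in the CMS pool relative to the control pool, led by C4bp at 10.2-fold, Cfi at 9.87-fold, Mbl2 at 8.28-fold and C8a at 8.22-fold. None of the 6 glial members with a ratio passed 2-fold in either direction, and C1qa, C1qb and C1qc lay between 0.991-fold and 1.06-fold. Of the members with other or several sources, Cfd and C1ra were more than 2-fold higher. No member was below 0.5 times the control pool. In all, 13 of the 29 members with a ratio were more than 2-fold higher, or 44.8%. Among all 27117 gene names with a ratio, 1.96% were more than 2-fold higher and 0.564% more than 2-fold lower. Of the changed gene names 77.7% were thus higher, a share that was 63.1% without scaling of the arrays and 87.5% after normexp background correction with quantile normalization. Under the latter Cfd, Mbl1, C1ra and Masp1 were no longer past 2-fold, and with the mean of all probes C8g was not. Mbl1 and Masp1, counted among the 13, were well above background only in the CMS pool. With both pools above background required, 11 of 25 members were more than 2-fold higher, beside 1.16% of all gene names.

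The letters before the gene's start are printed for the 3 liver members with a match to a motif of HNF1 or C/EBP, and for 1 glial member without a match, because Hnf4a, a transcription factor of the liver, is a subject of the study. Mbl2 and C8a, whose ratios were above those of C3 and Hc, were searched too and held neither motif. The sequences are those of RefSeq on GRCm38.p6, 5′ to 3′ on the gene's strand, and end at the base before the annotated start. Capitals mark a match to a motif of HNF1 or C/EBP, factors that are abundant in hepatocytes. They are C4bp at chr1:130661619-130661868 (minus strand), Hc at chr2:35061413-35061662 (minus strand), C3 at chr17:57228137-57228386 (minus strand) and C1qb at chr4:136886201-136886450 (minus strand), the last of which has no match.
C4bp: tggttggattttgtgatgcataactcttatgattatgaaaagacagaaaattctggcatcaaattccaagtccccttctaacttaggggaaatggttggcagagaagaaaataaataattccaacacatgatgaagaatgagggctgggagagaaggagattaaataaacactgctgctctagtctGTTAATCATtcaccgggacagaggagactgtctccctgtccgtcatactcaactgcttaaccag
Hc: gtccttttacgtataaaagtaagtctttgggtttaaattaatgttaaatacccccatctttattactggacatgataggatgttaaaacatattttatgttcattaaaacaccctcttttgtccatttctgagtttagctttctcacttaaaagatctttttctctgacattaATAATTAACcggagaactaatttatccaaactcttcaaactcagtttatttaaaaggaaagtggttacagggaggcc
C3: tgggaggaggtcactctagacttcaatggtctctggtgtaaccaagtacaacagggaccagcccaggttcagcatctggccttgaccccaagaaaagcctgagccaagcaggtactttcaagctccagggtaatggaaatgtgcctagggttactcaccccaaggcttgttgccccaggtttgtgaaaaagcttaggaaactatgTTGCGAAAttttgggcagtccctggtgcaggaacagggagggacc
C1qb: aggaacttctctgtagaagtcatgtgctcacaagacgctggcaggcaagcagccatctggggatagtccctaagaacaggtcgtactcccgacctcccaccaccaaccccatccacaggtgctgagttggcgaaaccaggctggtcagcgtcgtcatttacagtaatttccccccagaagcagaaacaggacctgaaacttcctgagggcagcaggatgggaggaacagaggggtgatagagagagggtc

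Of the 32 members, 24 were matched to a RefSeq start, with C1qa, C2, C4b, Cfb, Cfi, Masp1, Serping1 and Clu not matched. The 250 bases before each start were searched on both strands for 5 motifs, which do not overlap one another in the matches printed. The HNF1 motif GTTAATNAT was found in 0.737% of all 32851 promoters and in 2 of the 12 liver members, C4bp and Hc. In C4bp the match GTTAATCAT began 64 bases before the start. In Hc the match was on the opposite strand and read ATAATTAAC from 77 bases before the start. The C/EBP motif TTGCGNAA was found in 0.67% of all promoters and in 1 liver member, C3, as TTGCGAAA 45 bases before the start. The HNF4 motif CAAAGTCCA (0.384% of all promoters) and the NF-kB motif GGGACTTTC (0.289%) were found in no member. With shares this low, the lack of a match in 24 members does not show that such sites are absent. The TATA motif TATAAA (12.4%) was found in Hc, Vtn, C3ar1 and C7. Neither the HNF1 nor the C/EBP motif was found in the 5 glial members searched. A match is a description of letters and not of a bound site.

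In the following, signals are the scanner's processed intensities scaled to a mean of 2500 on each array. A signal is read only against the same probe on the other array, since probes of different genes differ in brightness. The lowest scaled signal that the scanner software marked as well above background was 17.8 in the control pool and 17.6 in the CMS pool. Where a probe was not well above background in 1 pool, the higher of this value and its own signal was used, and the fold change is given as "at least". Where neither pool was well above background no ratio was taken.

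**Figure D1:**
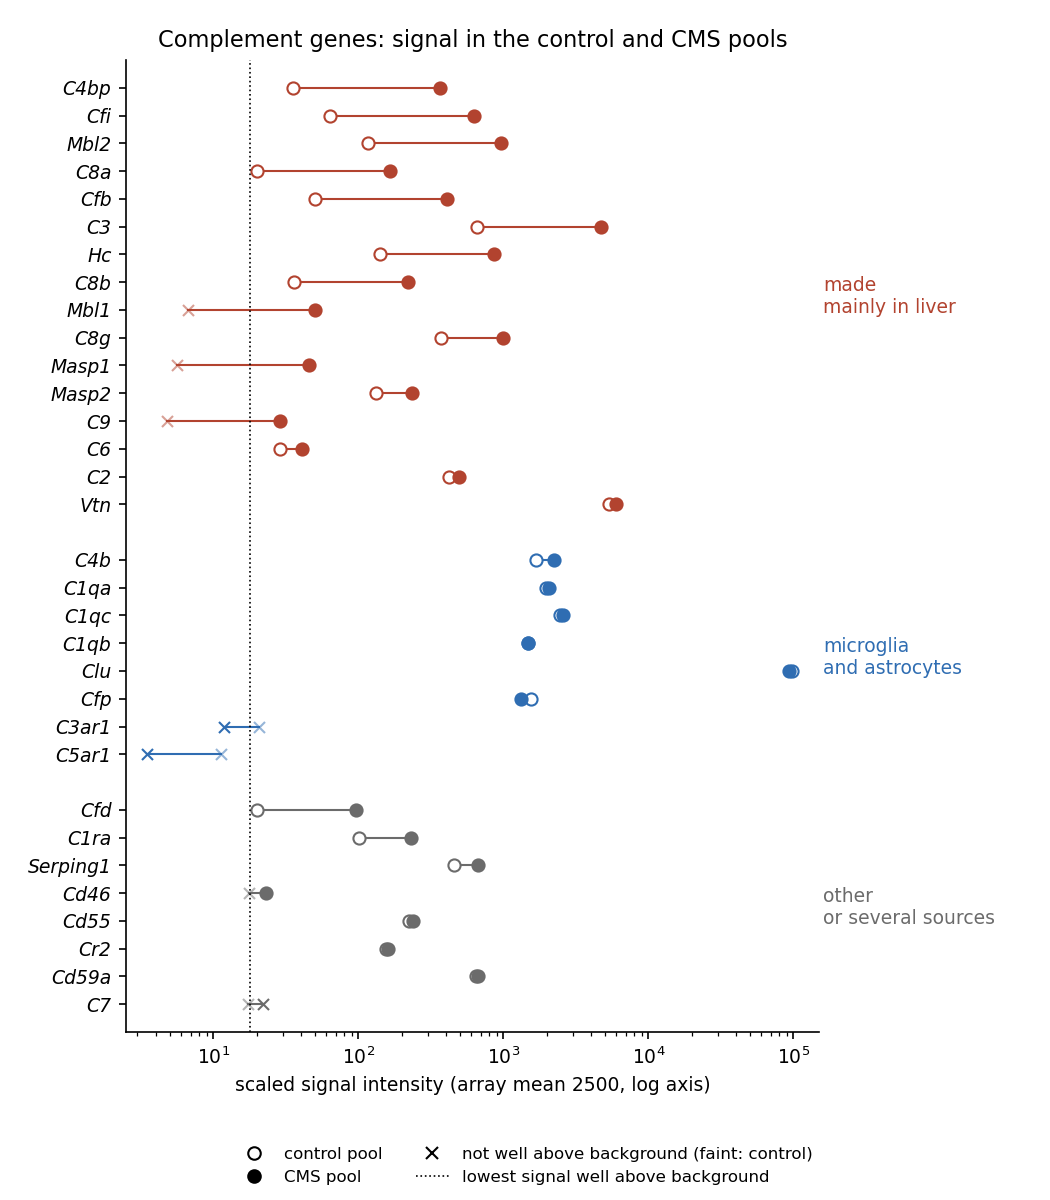
Scaled signal intensity (log axis, array mean 2500) of all 32 complement members in the control pool (open circles) and the CMS pool (filled circles), 1 row per gene, grouped by main source and ordered by log2 ratio; crosses mark signals not well above background and the dotted line the lowest signal well above background, and only the 2 points of 1 row can be compared. The long bars are those of liver members such as C4bp (35.6 to 363.6), whereas the points of C1qa, C1qb and C1qc nearly coincide.

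The first proteins of the classical pathway showed no large difference. C1qa, which encodes the A chain of C1q, had a signal of 1962 in the control pool and 2079 in the CMS pool. C1qb, the B chain, had 1488 in the control pool and 1475 in the CMS pool. For C1qc, the C chain, the probe was spotted 10 times on each array. The 9 spots free of outlier marks on both arrays ran from 2405 to 2589 with a median of 2460 in the control pool, and from 2410 to 2692 with a median of 2611 in the CMS pool. The spots of the pools overlapped, and their mean log2 ratio was 0.07 ± 0.05 (SD, n = 9 spots on 1 array per pool). All 3 chains were far above background in both pools.

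C1ra, which encodes the protease C1r that C1q activates, had a signal of 100.3 in the control pool and 230.5 in the CMS pool, or a log2 ratio of 1.20. A second C1ra probe gave 0.96, just under 2-fold. The close copy C1rb, whose sequence is near to that of C1ra, had signals of 41.2 and 41.0, so the difference was seen on both C1ra probes and not on the C1rb probe. Serping1, the C1 inhibitor, was higher by less than 2-fold, with 457.7 in the control pool and 671.6 in the CMS pool. Its second probe gave a log2 ratio of 0.58, beside 0.55 for the first.

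In the lectin pathway Mbl2 differed from C1q, whereas Mbl1 and Masp1 had only lower bounds and Masp2 stayed under 2-fold. Mbl2, mannose-binding lectin C, had a signal of 116.8 in the control pool and 967.8 in the CMS pool, or a log2 ratio of 3.05. Mbl1, mannose-binding lectin A, was not well above background in the control pool at 6.70 and was at 50.5 in the CMS pool, at least 2.84-fold higher. In the main values both lectins were thus past 2-fold in the same direction. After normexp background correction with quantile normalization Mbl1 was at a log2 ratio of 0.84, under 2-fold. Masp1, a protease carried by the lectins, was likewise well above background only in the CMS pool. It was at 45.4 beside 5.60 in the control pool and was at least 2.55-fold higher. After the same normexp correction Masp1 was under 2-fold too, at a log2 ratio of 0.45. Masp2, the protease that cleaves C4 and C2, had 133.0 in the control pool and 236.2 in the CMS pool and stayed under 2-fold. Its 3 probes gave log2 ratios of 0.38, 0.83 and 0.98, the lowest of them a bound.

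The components that form the C3 and C5 convertases were split. C3, the center of the cascade, was measured by a probe with 10 spots on each array. Its spots ran from 611.6 to 701.5 with a median of 655.1 in the control pool, and from 4529 to 5107 with a median of 4702 in the CMS pool. The 2 ranges did not overlap, and the mean log2 ratio was 2.85 ± 0.06 (SD, n = 10 spots on 1 array per pool), a fold change of 7.20. A second C3 probe gave a smaller value, 840.8 in the control pool and 2835 in the CMS pool, or a fold change of 3.37. Both probes were past 2-fold, but the size of the C3 difference depended on the probe. The first was used because its mean log2 signal over both pools was higher, although it was the dimmer in the control pool.

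Cfb, factor B of the alternative pathway, had 50.4 in the control pool and 406.9 in the CMS pool, or a fold change of 8.08. Cfd, the protease that cleaves factor B and a product of fat cells, was near background in the control pool at 20.0 and was at 96.3 in the CMS pool, or a fold change of 4.82. After normexp background correction with quantile normalization Cfd was at a log2 ratio of 0.89, under 2-fold. In the main values Cfb, the enzyme of the alternative convertase, and Cfd, which cleaves it, were both more than 2-fold higher. Cfp, properdin, which stabilizes that convertase and is made by myeloid cells, was the lowest of all members with a ratio, with 1544 in the control pool and 1333 in the CMS pool and a log2 ratio of -0.21. C2, which encodes the protease of the classical and lectin convertase, differed from Cfb, with 419.7 in the control pool and 495.2 in the CMS pool. C4b had 1673 in the control pool and 2229 in the CMS pool, or a log2 ratio of 0.41, the highest of the glial group. The C4b probe may also read the near-identical C4a, for which no probe was named here.

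Among the terminal components, which build the membrane attack complex, 4 of 6 with a ratio were more than 2-fold higher. This is 66.7%, beside 1.96% of all gene names with a ratio. Hc, which encodes C5, had a signal of 140.6 in the control pool and 864.2 in the CMS pool, or a fold change of 6.14. C8a and C8b, which encode the pore-forming alpha and beta chains of C8, had 20.2 and 36.2 in the control pool and 165.5 and 218.5 in the CMS pool. These are fold changes of 8.22 and 6.04, although the C8a probe was close to background in the control pool and its second probe was not well above background in either. C8g, the lipocalin chain of C8, was less certain. Its brighter probe had 371.9 in the control pool and 998.1 in the CMS pool, or a log2 ratio of 1.42, whereas the other had 233.4 and 267.7, a log2 ratio of 0.20. C9, which forms most of the pore, was not well above background in the control pool at 4.81 and was at 28.6 in the CMS pool, at least 1.61-fold higher. C6 was dim in both pools, with 28.9 and 40.8, and stayed under 2-fold. C7 was not well above background in either pool on either of its probes.

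Among the regulators, a pair of soluble inhibitors made in liver, C4bp and Cfi, held the highest ratios of all members, except after normexp background correction with quantile normalization. There C3 (2.74) and Mbl2 (2.58) lay above Cfi (2.33) and C4bp (2.09). C4bp, the C4b-binding protein, had 35.6 in the control pool and 363.6 in the CMS pool, or a log2 ratio of 3.35. Cfi, the protease that inactivates C3b and C4b, had 64.0 in the control pool and 631.9 in the CMS pool, or a log2 ratio of 3.30. Vtn and Clu, which bind the terminal complex in fluid, showed no such difference. The 10 spots of Vtn, vitronectin, ran from 5140 to 5498 with a median of 5342 in the control pool and from 5502 to 6272 with a median of 5943 in the CMS pool. The ranges missed each other by a narrow margin, and the mean log2 ratio was 0.16 ± 0.05 (SD, n = 10 spots on 1 array per pool). Without scaling of the arrays the log2 ratio of Vtn was -0.01, so this separation depends on the scaling. Clu, clusterin, had 97956 in the control pool and 93054 in the CMS pool, or a log2 ratio of -0.07.

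The inhibitors that sit on cell membranes were nearly level. Cd55, which speeds the decay of convertases, had 221.8 in the control pool and 239.3 in the CMS pool. Cd59a, which blocks the assembly of the terminal pore, had 651.9 and 664.3. Cd46, whose expression in mice is largely confined to testis, was barely above background in the CMS pool, at 23.0 beside 17.6 in the control pool, and was at least 1.29-fold higher. Of the receptors, Cr2, complement receptor 2 of B cells and follicular dendritic cells, had 155.8 and 160.6. C3ar1 and C5ar1, the receptors of the anaphylatoxins C3a and C5a, were not well above background in either pool, with signals of 20.5 and 11.2 in the control pool and 11.8 and 3.51 in the CMS pool, so no ratio was taken for either.

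**Figure D2:**
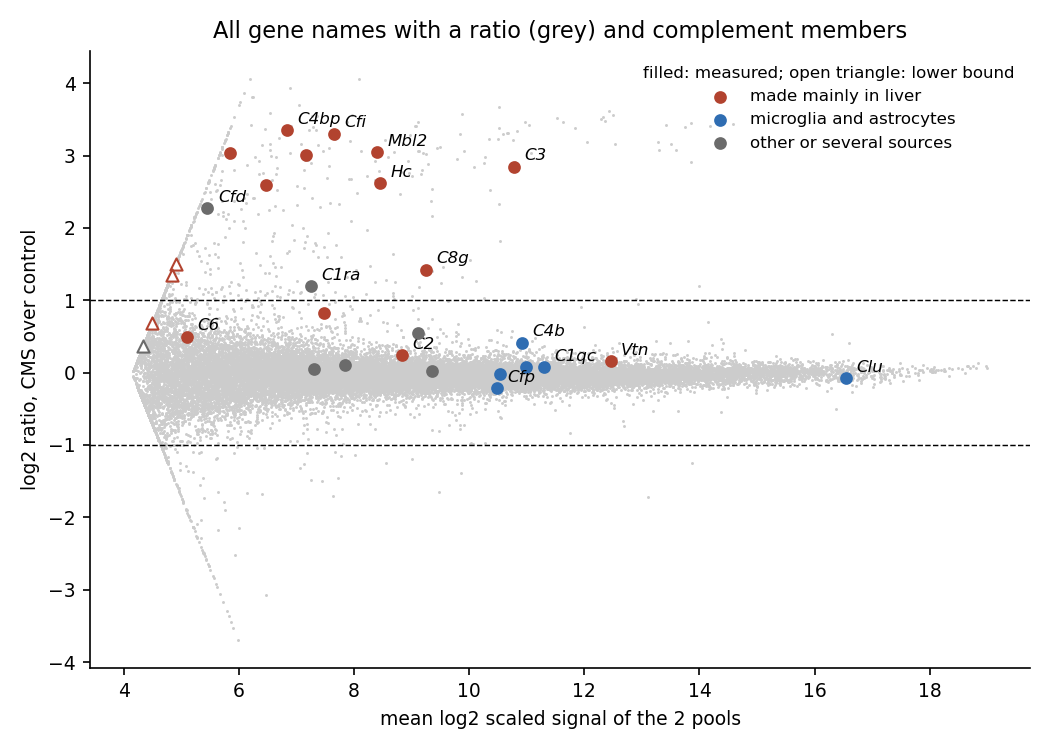
Log2 ratio of CMS over control (vertical axis) against the mean log2 scaled signal of the 2 pools (horizontal axis) for 27117 gene names (grey) and the 29 complement members with a ratio (colored by main source; open triangles are lower bounds); dashed lines mark 2-fold. Liver members such as C4bp, Cfi and C3 lie far above the grey band, and the glial members lie within it.

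By group, the median log2 ratio of the 16 liver members was 2.05, with a range from 0.16 for Vtn to 3.35 for C4bp. The median lies between a measured value and the bound of Mbl1, and over the 13 liver members well above background in both pools it was 2.62. The median was 0.03 over 6 glial members, with a range from -0.21 to 0.41, and 0.37 over 7 members with other or several sources. The median over all gene names with a ratio was -0.03. The difference between the liver and the glial median was 2.02 on the log2 scale. It was 1.36 after normexp background correction and 2.78 with no filter on dim probes. The groups were set by known main source and overlap in their values, since the liver members Vtn and C2 lay below the glial member C4b.

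Among members well above background in both pools, 8 liver members from C4bp to C8b, with log2 ratios of 3.35 to 2.59, came first, and Cfd followed at 2.27. Mbl1, Masp1, C9 and Cd46 have only lower bounds and no place in this order, and with no bound Masp1 (3.02) and Mbl1 (2.92) lay within the range of the first 8. The log2 ratios of repeated spots had an SD of 0.14 within a probe, estimated from 335 probes. Within the first 8, neighbors that differed by less than this were C4bp and Cfi, the 3 genes Mbl2, C8a and Cfb, and the pair Hc and C8b. Their order was therefore not resolved even within the arrays. This SD is for spots of 1 probe and not for a difference between genes. Wider gaps were thus not shown to be resolved either, and the second C3 probe (1.75) would place C3 below Cfd. Among all gene names with a ratio, with bounds taken at their value, 43 had a larger ratio than C4bp, 52 than Cfi and 132 than C3.

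**Figure D3:**
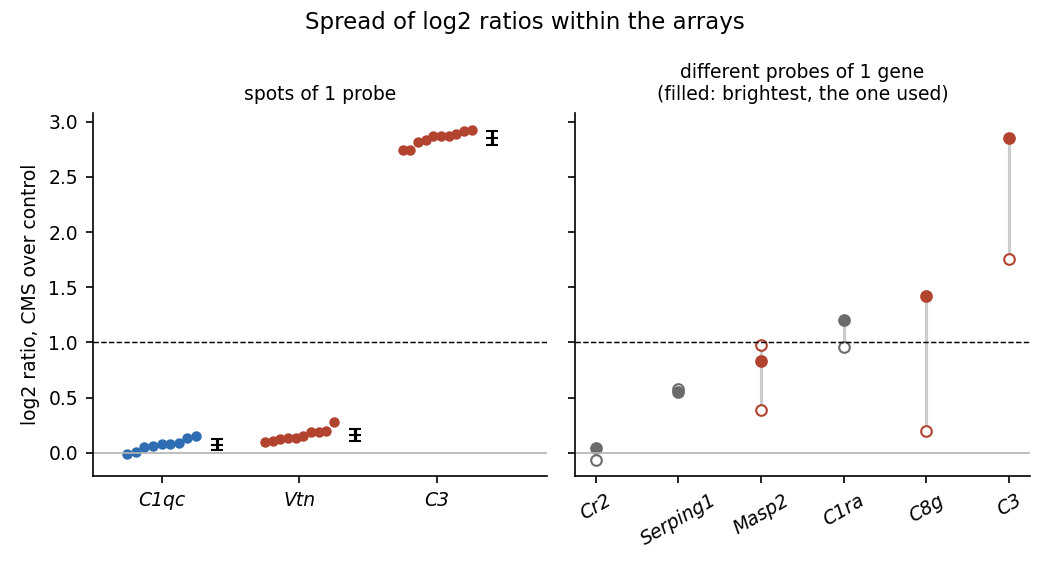
Log2 ratio of CMS over control (vertical axis, both panels) for repeated spots of 1 probe of C1qc (9 spots), Vtn (10) and C3 (10), with mean and SD as bars, and for different probes of 6 members, where filled points are the brightest probe, which was used; the dashed line marks 2-fold. Spots of 1 probe agreed closely, whereas the probes of C3 (2.85 and 1.75) and C8g (1.42 and 0.20) did not.

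Different probes of 1 member gave a further measure of error. Of the 6 members with more than 1 probe with a ratio, Serping1 and Cr2 differed between probes by 0.02 and 0.11 on the log2 scale and C1ra by 0.24. Masp2 differed by 0.59, C3 by 1.09 and C8g by 1.23. The last 2 gaps are far above the spot SD of 0.14, so the sizes of the C3 and C8g differences carry an error that spots of 1 probe do not show. For 2 of these members, C1ra and C8g, 1 probe passed 2-fold and another did not.

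Of the 29 other complement genes listed beside the members, most of those with a ratio stayed within 2-fold. A probe was named for 26 and a ratio taken for 23, with a median log2 ratio of 0.06. Of the 23, 4 were more than 2-fold higher, or 17.4%, beside 1.96% of all gene names with a ratio. None was more than 2-fold lower, beside 0.564% of all gene names. The 4 included C1s1, the C1s protease of the classical pathway, at a log2 ratio of 1.72, its copy C1s2 at 1.11, and Cpn2, a subunit of the carboxypeptidase that inactivates anaphylatoxins, at least 2.43-fold higher. Of the close copies of membrane inhibitors, Cd59b had 58.6 in the control pool and 31.8 in the CMS pool, or a log2 ratio of -0.88, and the 2 probes of Cd55b gave -0.58 and 0.34. The brain-expressed inhibitors Susd4 and Csmd1 had log2 ratios of -0.09 and -0.05.

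**Figure D4:**
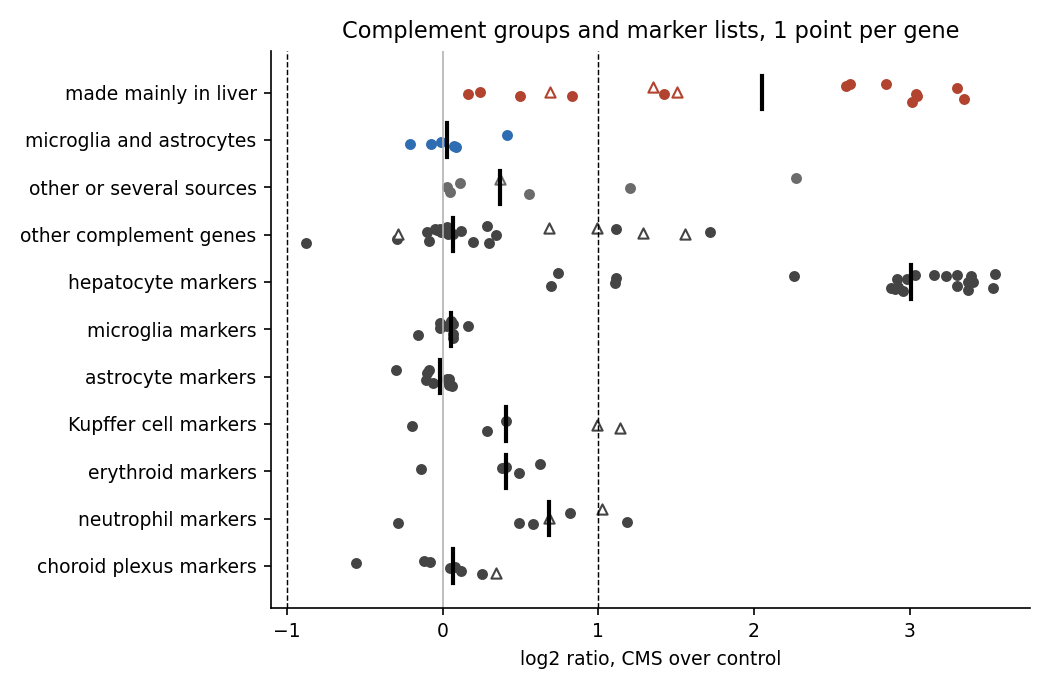
Log2 ratio of CMS over control (horizontal axis), 1 point per gene, for the 3 complement groups, the other complement genes and 7 marker lists; open triangles are bounds, black bars medians and dashed lines 2-fold. The liver members spread from near 0 to the values of the hepatocyte markers (median 3.01). The glial median (0.03) lies near those of the microglia (0.05) and astrocyte (-0.02) markers. C4b (0.41) lies above all microglia and astrocyte markers, and Cfp (-0.21) lies below the microglia markers.

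Marker lists were set beside these groups. Of 22 hepatocyte markers that are not complement genes, 20 passed 2-fold upward in the CMS pool. The median of their log2 ratios was 3.01, between a lowest of 0.69 and a highest of 3.55. All 22 were well above background in the control pool too, and their summed signal was 26622 in the control pool and 131919 in the CMS pool. A single probe, of a marker under 2-fold, gave 14224 of the control sum. Alb, albumin, had 1509 and 17486. The first 8 liver members lay inside the range of these markers. That range is wide, and Cfd (2.27) and C1ra (1.20), of the members with other or several sources, lay inside it too. Of 6 Kupffer cell markers, 5 had a ratio and 1, Clec4f, was at least 2.20-fold higher, with summed signals of 458.0 and 579.8, 3 of 6 well above background in the control pool and Timd4 in neither. The part of liver RNA, of any source, in the complement differences was not tested.

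None of the 10 microglia markers and none of the 10 astrocyte markers passed 2-fold. Microglia markers, which include Itgam of the other complement genes, had a median log2 ratio of 0.05 and summed signals of 225523 in the control pool and 235942 in the CMS pool. Astrocyte markers had a median of -0.02 and summed signals of 249277 and 234679. Single probes gave most of both sums, with 156486 of the microglia sum and 196370 of the astrocyte sum in the control pool. Neuron markers, which check the tissue, were all well above background in both pools with a median of -0.04. In bulk RNA, fewer cells of a type and less RNA per cell cannot be told apart. Of the blood markers, 5 of 8 erythroid markers had a ratio, with a median of 0.41 and none past 2-fold, and 7 of 8 neutrophil markers had one, with a median of 0.68 and 2 higher by more than 2-fold. Car1 (-0.14) and Elane (-0.29) were below 0. Choroid plexus markers had a median of 0.06 over 8, and markers of pericytes and endothelium, cells that make Vtn in brain, had 0.02 over 8. The part of blood in the differences of myeloid members was not tested.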

How the data were processed

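Members, lists and motifs were chosen with earlier results of these data known. For each array the authors deposited scanner tables of 1-color intensities from Agilent Feature Extraction 10.10.1.1, background-subtracted and spatially detrended and not scaled between arrays, and a second table of these intensities multiplied by a constant for each array. Outlier spots (130 on the control array and 133 on the CMS array) were left out with the control spots, spots of 1 probe were averaged, and the mean of both arrays was set to 2500, the average the methods name. A probe was taken as well above background if a share of 0.5 or more of its spots carried that mark. No spot was saturated. Accessions without versions were named through the RefSeq table of GRCm38.p6, which named 30740 of 59305 spots. For the other spots the accession itself was counted as a gene name. The brightest probe with a ratio, by mean log2 signal over both pools, stood for a gene. The CMS signal thus entered the choice of probe. A gene was counted as changed above 2-fold or below 0.5 times. All members are named, other complement genes where past 2-fold or, as Susd4, Csmd1, C1rb, Cd55b and Cd59b, by role or likeness, and markers as lists with Alb. Susd4 and Csmd1 were picked with their values known. Results for some other complement genes are not reported here. The calculation of ratios and calls was tested on simulated data. The number of arrays limits the precision. In signal over background, the array medians were 3.64 (control) and 3.76 (CMS) times the lowest signal well above background. Calculations used Python 3.11.15, numpy 2.4.6, pandas 2.3.3, R 4.3.3 and limma 3.58.1. The 12 alternatives are given with the closing observations.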

Additional observations from a re-analysis of the deposited data

How the results depend on the processing

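With a single array per group, no replicate could be left out and no block fitted. No paired analysis was possible because neither group has a second array. Of 12 alternatives, each count or median was compared with its main value, and 65 values stayed within limits (0.14 on the log2 scale, a factor of 1.5 for counts) and 19 did not. The number of members more than 2-fold higher, 13, ran from 9 to 14. Under normexp correction with quantile normalization, which adds an offset of 50 to every signal, Cfd (0.89), Mbl1 (0.84), C1ra (0.76) and Masp1 (0.45) were no longer past 2-fold. With the mean of all probes C8g (0.81) was not, and with no bound C9 (2.57) was. The liver median of 2.05 was 1.88 without scaling, 1.39 after normexp, 2.73 with no bound and 2.73 with no filter, 2.62 for probes above background in both pools and 1.90 with the mean of all probes. The difference between liver and glia, 2.02, was 1.36 after normexp, 2.70 with no bound, 2.59 where both pools had to be above background, 2.78 with no filter and 1.87 with the mean of all probes. The glial median was -0.14 with no scaling, which shifts the median of all genes from -0.03 to -0.20, and the median of members with other sources was 0.20 with no scaling and 0.10 under normexp. With no filter 1 member, C5ar1 (-1.68), was below 0.5 times, from signals not above background. The count of all changed genes, 685, came to 1090 with no bound, 2562 with no filter, 303 after normexp and 338 where both pools had to be above background. The share of changed genes that were higher, 77.7%, was 63.1% without scaling, 87.5% after normexp, 87.0% for probes above background in both pools and 58.3% with no filter. No member past 2-fold changed sign. Of single members' values, 292 stayed and 52 moved, 29 of these with no scaling. The causes were not tested beyond what each setting does by construction.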
